A study of Mus musculus with 14 samples.

Results

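Mouse pluripotent cells were compared after 5 and after 3 days in FGF and activin medium (F/A), by RNA-seq with 1 library at each time. The members were all genes with a mean of at least 1 CPM (a count divided by its library total and scaled) over the 2 libraries, which were 13332 of the 37620 genes in the count files. The gene just inside that limit, Gm12868, had 42 counts at day 5 and 27 at day 3. The gene just outside it, Gm15950, had 32 and 38. The F/A day 5 cells and the F/A day 3 cells came from C57BL/6 embryonic stem cells that carry an mCherry reporter at mir-290 and an eGFP reporter at mir-302. For both times the stem cells were plated sparsely in N2B27, which has no serum, and given 20 ng/ml of activin A together with basic FGF, whose dose is not stated for them. The labels describe all the cells as positive for both reporters and name no sorting step. A day 0 library came from the same reporter line, also labelled positive for both reporters, grown in serum and LIF with 100 µM vitamin C. It is given here as a level only. The series holds 14 libraries, 4 from this reporter experiment and 10 from a separate one with 2 libraries for each of 5 media, in which F/A was also applied for 5 days. Its F/A cells were given 20 ng/ml of activin A and 12 ng/ml of basic FGF, and carry no reporter label. Its other media were serum with LIF, and LIF with L-proline, with 500 µM vitamin C or with 2i.

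As background, activin A acts through the same receptors and SMAD proteins as Nodal, and FGF acts through receptor tyrosine kinases and ERK. Together they hold mouse cells in a primed state that resembles the epiblast around gastrulation, in place of the naive state kept by LIF. In the embryo the posterior epiblast then forms the primitive streak, which is marked by Brachyury (T), Mixl1 and Eomes under Nodal, Wnt and FGF signals. Germline genes are silenced over the same period by DNA methylation of their CpG-rich promoters. The microRNA cluster mir-290 marks naive cells, and mir-302 marks primed cells.

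The cells are described by reporters of those microRNA loci, so mature sequences from both are shown, as RefSeq gives them for GRCm38.p6, 5′ to 3′, with the seed (bases 2 to 8) in capitals. These 5 share 1 seed.
mmu-miR-291a-3p, chr7:3218968-3218989, plus strand: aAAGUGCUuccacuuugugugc
mmu-miR-294-3p, chr7:3220691-3220712, plus strand: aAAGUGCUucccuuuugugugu
mmu-miR-295-3p, chr7:3220815-3220837, plus strand: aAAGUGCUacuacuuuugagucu
mmu-miR-302b-3p, chr3:127545275-127545297, plus strand: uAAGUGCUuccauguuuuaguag
mmu-miR-302d-3p, chr3:127545665-127545687, plus strand: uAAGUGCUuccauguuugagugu
Reads over the 7 mir-290 cluster rows numbered 145 at day 0, 52 at day 3 and 20 at day 5, and reads over the 5 mir-302 cluster rows numbered 46, 50 and 36. The log2 ratio of day 5 over day 3 was -1.24 for mir-290 (95% counting interval -2.06 to -0.47) and -0.33 for mir-302 (-0.99 to 0.31). These counts over the hairpins are no measure of the mature microRNAs, and each row was below the 1 CPM limit.

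Promoters of 6 genes that carry the main groups are shown next. Each is the 250 bases before the RefSeq start in GRCm38.p6, 5′ to 3′ along the gene, with the letters of a searched motif in capitals. Mael, Hormad1 and Taf7l are germline genes that were lower at day 5, and the capitals mark the E-box letters CACGTG.
Mael, chr1:166238745-166238994, minus strand: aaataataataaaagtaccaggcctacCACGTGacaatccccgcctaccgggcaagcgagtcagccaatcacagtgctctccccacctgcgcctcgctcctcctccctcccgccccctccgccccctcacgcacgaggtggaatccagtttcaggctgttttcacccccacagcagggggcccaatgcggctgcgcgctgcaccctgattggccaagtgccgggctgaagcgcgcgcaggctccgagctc
Hormad1, chr3:95559427-95559676, plus strand: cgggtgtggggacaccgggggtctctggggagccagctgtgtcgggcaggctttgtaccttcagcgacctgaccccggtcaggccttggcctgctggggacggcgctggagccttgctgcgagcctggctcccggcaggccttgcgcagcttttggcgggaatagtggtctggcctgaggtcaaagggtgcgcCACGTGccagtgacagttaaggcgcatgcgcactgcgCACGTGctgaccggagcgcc
Taf7l, chrX:134476491-134476740, minus strand: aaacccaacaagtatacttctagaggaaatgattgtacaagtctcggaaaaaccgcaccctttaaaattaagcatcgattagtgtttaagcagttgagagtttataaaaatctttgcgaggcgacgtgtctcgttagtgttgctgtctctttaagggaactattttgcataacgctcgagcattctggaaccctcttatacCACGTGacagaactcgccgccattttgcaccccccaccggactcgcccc
Gbp2 and Irgm1 are interferon-response genes that were higher at day 5, and the capitals mark the core of the interferon-stimulated response element (GAAA, any 2 bases, GAAA) on either strand. In Irgm1 it occurs 2 times, with an overlap.
Gbp2, chr3:142620413-142620662, plus strand: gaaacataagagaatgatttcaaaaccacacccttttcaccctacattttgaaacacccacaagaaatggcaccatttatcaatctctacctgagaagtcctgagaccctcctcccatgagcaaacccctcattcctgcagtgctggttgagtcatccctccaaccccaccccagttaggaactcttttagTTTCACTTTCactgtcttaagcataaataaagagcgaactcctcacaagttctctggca
Irgm1, chr11:48871421-48871670, minus strand: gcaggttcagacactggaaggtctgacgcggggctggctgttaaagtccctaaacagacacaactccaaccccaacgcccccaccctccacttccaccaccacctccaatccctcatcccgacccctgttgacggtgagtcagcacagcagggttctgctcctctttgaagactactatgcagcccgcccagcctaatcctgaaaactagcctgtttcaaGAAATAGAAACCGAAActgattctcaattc
Sp5, a direct Wnt target gene that was higher at day 5, is shown with the TCF/LEF letters ATCAAAG, here on the opposite strand.
Sp5, chr2:70474673-70474922, plus strand: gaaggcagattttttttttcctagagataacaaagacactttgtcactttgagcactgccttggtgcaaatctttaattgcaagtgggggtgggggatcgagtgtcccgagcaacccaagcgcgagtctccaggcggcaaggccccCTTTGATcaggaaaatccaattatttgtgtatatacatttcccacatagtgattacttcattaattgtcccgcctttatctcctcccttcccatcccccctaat

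The libraries held 34149515 counts at day 0, 35626817 at day 3 and 33162689 at day 5. Genes with at least 1 count numbered 20796, 21978 and 20594 in the same order. Transcripts of the mitochondrial genome summed to 28654 CPM at day 5 and 43770 CPM at day 3. Across the 13332 genes the median log2 ratio was 0.03, 1235 genes (9.26%) were at least 2-fold higher at day 5 and 1058 (7.94%) were at least 2-fold lower. A 4-fold size was reached by 396 higher and 422 lower genes. Lower genes were mostly weakly expressed: with at least 10 CPM in the higher library, 751 genes were higher and 337 lower. With 1 library at each time there is no replicate, so no test was made and the intervals given cover counting error only.

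The size of differences between libraries of 1 medium was taken from the other experiment. Among genes with a mean of at least 10 CPM, 9.67% differed at least 2-fold between day 5 and day 3. Between the 2 F/A libraries of the other experiment 4.43% did. The shares between the 2 libraries of its other media were 0.869% with L-proline, 0.54% with vitamin C, 0.283% with 2i and 0.773% with serum and LIF alone. At 4-fold the shares were 2.85% between days and 0.564% between the 2 F/A libraries. With a mean of at least 1 CPM, 10.7% of genes differed at least 2-fold between those 2 F/A libraries, which held 6047309 and 15676842 unique hits (reads assigned to 1 gene only). At that limit 17.2% of genes differed between day 5 and day 3, and 2.14% with L-proline, 2.34% with vitamin C, 1.68% with 2i and 2.08% with serum and LIF alone. A 2-fold ratio is therefore within what 2 F/A libraries can show, and larger ratios are less common between them.

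**Figure D1:**
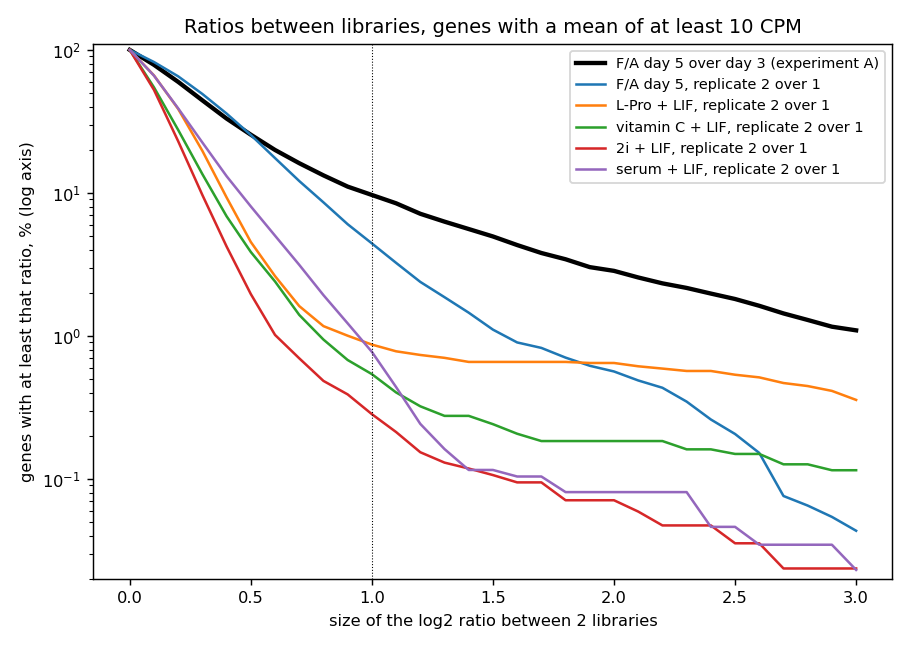
Share of genes (y, percent, log axis) with at least a given log2 ratio between 2 libraries (x), for genes with a mean of at least 10 CPM. The black line is F/A day 5 over day 3 and the coloured lines are the pairs of libraries of 1 medium in the other experiment. At a log2 ratio of 1 the black line is at 9.67% and the F/A pair at 4.43%.

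**Figure D2:**
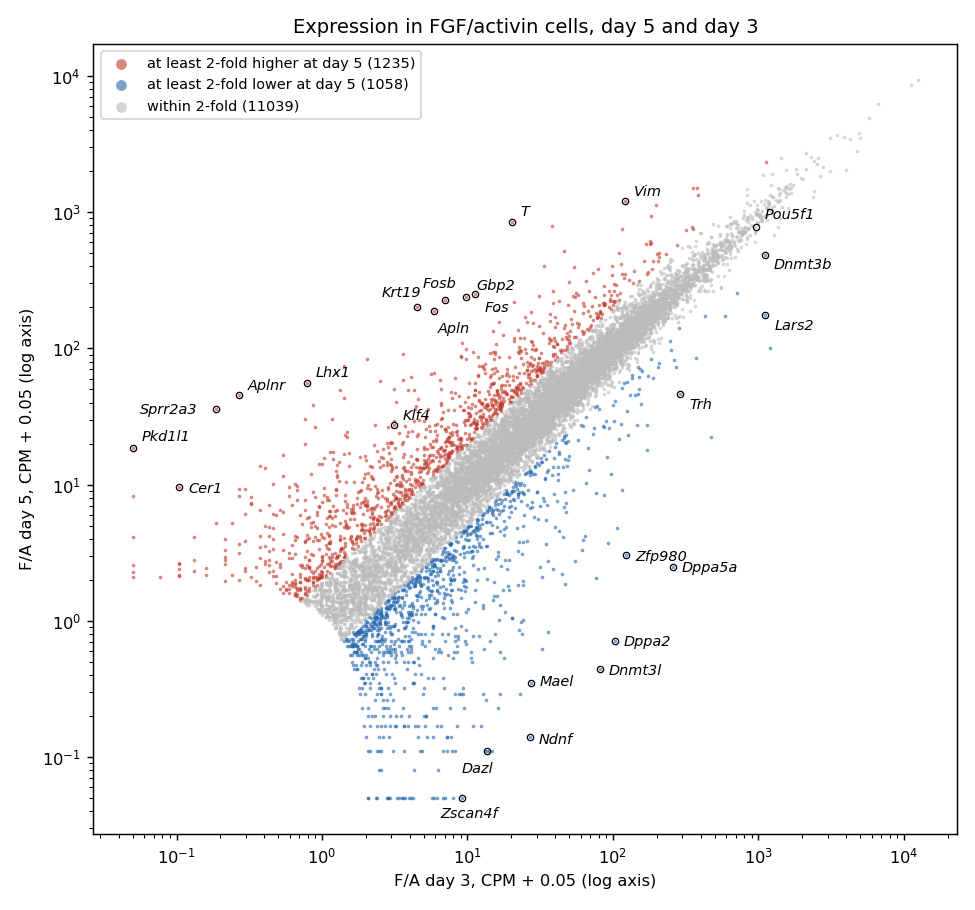
Level of each of the 13332 genes at F/A day 5 (y) and day 3 (x), as CPM + 0.05 on log axes. Red points are at least 2-fold higher at day 5 (1235 genes), blue points at least 2-fold lower (1058 genes), and circled genes are named in the text.

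Genes of the primitive streak and mesendoderm were mostly higher at day 5. Of 25 measured genes of 29, 19 (against 9.26% of all genes) were at least 2-fold higher at day 5 and 2 were lower, with a median log2 ratio of 2.51. Lhx1, Foxa2, Gsc, Msgn1, Cer1 and Aplnr were under 1 CPM at day 3 and passed the limit only through day 5. For these the direction was set by the limit, so the count is not a test. In these bulk libraries, more cells of a type and more RNA per cell cannot be told apart. T (ENSMUSG00000062327), the T-box factor that defines the streak, stood at 0.711 CPM at day 0, 20.1 CPM at day 3 and 848 CPM at day 5. Its day 5 level was 42.2-fold the day 3 level, a log2 ratio of 5.40 (5.29 to 5.50). Mixl1, a homeobox factor of the streak, had 43.0 CPM at day 5 and 1.36 CPM at day 3. All 3 time points of T were thus in rising order, and the day 5 library stood far above the others. Eomes, a T-box factor upstream of mesoderm and definitive endoderm, had 72.9 CPM and 12.8 CPM. Factors of the anterior streak were low at day 3 and present at day 5. Lhx1 had 55.8 CPM at day 5 and 0.737 CPM at day 3, Foxa2 had 26.5 and 0.846 CPM, and Gsc had 9.99 and 0.409 CPM. Msgn1, a factor of presomitic mesoderm, had 272 counts at day 5 and none at day 3, at least 99.9-fold higher against a floor of 3 counts. The caudal epiblast factor Nkx1-2 had 55.2 CPM at day 5 and 10.1 CPM at day 3, and Evx1, a homeobox factor of the posterior streak, had 14.7 and 1.26 CPM.

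Against that direction, Dll1, a Notch ligand, had 12.3 CPM at day 5 and 35.3 CPM at day 3. Wnt8a, a ligand of the early streak, had 0.474 CPM at day 0, 75.8 CPM at day 3 and 37.2 CPM at day 5. Mesp2, a somite factor below the limit, had 3 counts at day 5 and 51 at day 3. In the other experiment's 2 F/A libraries, T stood at 405 and 442 and Mixl1 at 59.5 and 35.7 unique-hit CPM, a scale made separately from the CPM used here. Of the 19 higher streak genes, both of those libraries lay on the day 5 side of the midpoint between the day 5 and day 3 levels for 17.

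The apelin receptor gene Aplnr, which marks nascent mesoderm, had 1504 counts at day 5 and 8 at day 3, a log2 ratio of 7.69 (6.71 to 8.91). Its ligand gene Apln had 187 CPM at day 5 and 5.84 CPM at day 3. The second ligand gene, Apela, chosen after its values were seen, was below the limit with 48 counts at day 5 and 15 at day 3. Aplnr had 44.3 and 35.8 unique-hit CPM in the 2 F/A libraries of the other experiment, and Apln had 108 and 130.

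Later mesoderm genes had no common direction. Of 15 measured genes 5 were at least 2-fold higher and 4 lower, with a median log2 ratio of -0.09. Gata6 had 5.96 CPM at day 5 and 0.437 CPM at day 3, and Pdgfra, a receptor of nascent mesoderm, had 6.89 and 1.15 CPM. Tbx4, a limb and allantois factor, had 0.662 CPM at day 5 and 6.96 CPM at day 3. Of 12 definitive endoderm genes, 6 were higher and 1 lower. For both lists the shares of all genes were 9.26% higher and 7.94% lower. Gata6, Isl1, Foxc1, Sox17 and Foxa2 were under 1 CPM at day 3 and passed the limit only through day 5. Tbx4 and Tal1 were under 1 CPM at day 5 and passed only through day 3. For these the direction was set by the limit, so neither count is a test. Sox17, an endoderm factor, had 4.84 CPM at day 5 and 0.382 CPM at day 3, and Krt19, a keratin of simple epithelia, had 199 and 4.48 CPM. Trh, the lower gene of the endoderm list, encodes thyrotropin-releasing hormone and had 46.1 CPM at day 5 and 289 CPM at day 3.

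Hox genes were mostly lower at day 5. Of 14 measured caudal and Hox genes of 27, 11 (against 7.94% of all genes) were at least 2-fold lower at day 5 and 1, Cdx2, was higher, with a median log2 ratio of -2.48. Hoxa2, Hoxa3, Hoxa5, Hoxa7, Hoxb2, Hoxb3, Hoxb4 and Hoxb9 were under 1 CPM at day 5 and passed the limit only through day 3. For these the direction was set by the limit, so the count is not a test. Hoxa5 had 6 counts at day 5 and 274 at day 3, and Hoxb4 had 5 and 181. Hoxb1 had 5.32 CPM at day 5 and 17.8 CPM at day 3. The listed genes that passed summed to 10.0 CPM at day 0, 89.9 CPM at day 3 and 29.1 CPM at day 5, so the day 3 library held the highest of the 3 sums. For all 11 lower genes both F/A libraries of the other experiment lay on the day 5 side of the midpoint.

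Neuroectoderm genes were few and low. Of 10 measured genes of 19, 3 were lower and 1 higher, beside 7.94% and 9.26% of all genes. Pax6, a neural factor, had 2.74 CPM at day 5 and 18.2 CPM at day 3, Neurod1, a neurogenic factor, had 4.48 and 16.6 CPM, and Sox9, a factor of neural crest and endoderm, had 7.19 and 0.273 CPM. Like the Hox genes, Pax6 and Neurod1 were higher at day 3 than at day 0, where they had 2.04 and 1.33 CPM.

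**Figure D3:**
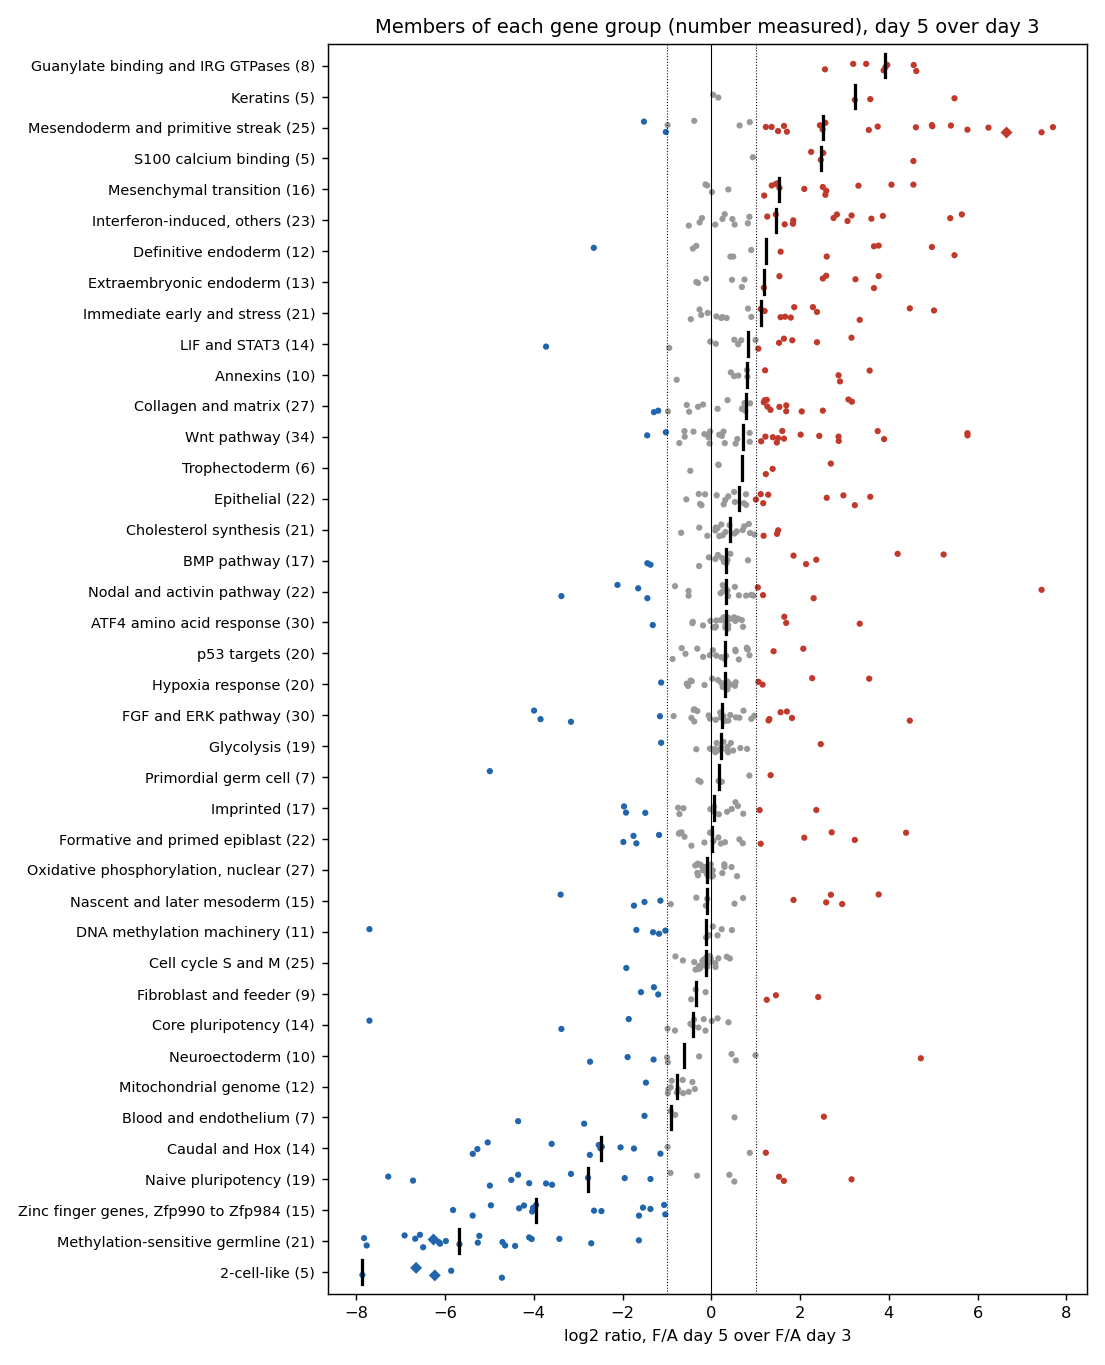
Log2 ratio of day 5 over day 3 (x) for each measured member of the gene groups with at least 5 measured members (rows, number measured in brackets). Red and blue points are at least 2-fold higher and lower, diamonds are genes with no count in 1 library drawn at their bound, black bars are medians with such genes at the extreme, and dotted lines mark 2-fold. The streak group has a median of 2.51 and the germline group of -5.67.

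Germline genes kept silent by DNA methylation were lower at day 5 without exception among those measured. All 21 that passed, of 24, were at least 2-fold lower, with a median log2 ratio of -5.67 and a range up to -1.63. A gene absent at day 5 passes the limit only through its day 3 level, so this count is not a test. Their summed level was 1437 CPM at day 0, 390 CPM at day 3 and 19.3 CPM at day 5. Dazl, an RNA-binding protein of germ cells, had 2 counts at day 5 and 499 at day 3, a log2 ratio of -7.82 (-10.87 to -5.96). Piwil2, a Piwi protein of the piRNA pathway, had 2 counts at day 5 and 479 at day 3. Both were close to the floor of 3 counts at day 5. Mael, also of the piRNA pathway, had 10 counts at day 5 and 992 at day 3. Slc25a31, the germ cell ADP/ATP carrier, had none at day 5 and 255 at day 3, at least 77.1-fold lower. Ddx4, the Vasa helicase of germ cells, had 39.5 CPM at day 0, 92.6 CPM at day 3 and 3.70 CPM at day 5, so it was highest at day 3. Tex11, a meiotic gene, D1Pas1, a testis helicase, and Psma8, the spermatogenesis proteasome subunit, were outside that list and among the 12 lowest ratios of all genes. Tex11, D1Pas1 and Psma8 had 6, 2 and 4 counts at day 5 and 588, 538 and 398 counts at day 3.

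In the other experiment's F/A libraries, all 21 lay on the day 5 side of the midpoint in both. Dazl stood there at 0.331 and 0.638 and Ddx4 at 5.46 and 5.42 unique-hit CPM. Of the 24 listed genes, 23 had a promoter in the RefSeq table, and 11 of these held CACGTG in the 250 bases before the start, against 6.05% of 27025 promoters. TCCCGC, an E2F-type motif read on both strands, was in 9 of 23, against 16.9% of all promoters. The median number of CG dinucleotides in the window was 14 for the listed genes and 6 for all promoters. Both motifs occur in Mael, where the printed sequence holds CACGTG 217 bases before the start. These motifs were chosen with the values known, and a match describes letters, not binding.

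The de novo methylation machinery was lower at day 5 while the maintenance enzymes differed little. Dnmt3l, the cofactor of the de novo enzymes, had 253 CPM at day 0, 81.4 CPM at day 3 and 0.391 CPM at day 5. Dnmt3b had 344 CPM at day 0, 1101 CPM at day 3 and 487 CPM at day 5, so its highest level was at day 3. Dnmt3a had 81.6 CPM at day 5 and 263 CPM at day 3. Tet1 and Tet2, the dioxygenases that oxidise methylcytosine, had 173 and 10.3 CPM at day 5 and 430 and 21.1 CPM at day 3, and Tet3 had 38.9 and 28.2 CPM. Dnmt1, the maintenance methyltransferase, had 479 CPM at day 5 and 495 CPM at day 3, and Uhrf1, which recruits it, had 289 and 314 CPM. Of the 11 genes, 5 were at least 2-fold lower and none was higher, beside 7.94% and 9.26% of all genes. In the other experiment's F/A libraries Dnmt3b stood at 848 and 1024 unique-hit CPM, on the day 3 side of the midpoint in both. Tet1 stood at 377 and 157, 1 on each side.

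Genes of the 2-cell-like state, which a few embryonic stem cells enter at a time, were near the floor at day 5. All 5 that passed, of 7 with an identifier, were lower, but with 0 to 4 counts at day 5 they passed only through day 3, so this count is not a test. Zscan4c had no count at day 5 and 248 at day 3. Zscan4f had none at day 5 and 332 at day 3, at least 100-fold lower against the floor. Zscan4d had 95 counts at day 0, 512 at day 3 and 2 at day 5, so the day 3 library was the highest. These genes are near-identical copies whose reads the counting could split, so each value alone is uncertain.

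A block of neighbouring zinc finger genes on chromosome 4 was chosen after its values were seen. Between Zfp990 and Zfp984 in RefSeq's gene order (GRCm38.p6), all 15 Zfp genes were measured and all 15 were at least 2-fold lower at day 5, with log2 ratios of -5.82 to -1.04. Of 309 other measured Zfp genes 23 (7.44%) were lower and 5 (1.62%) higher. The shares of all genes were 7.94% lower and 9.26% higher. Zfp980 had 422 CPM at day 0, 124 CPM at day 3 and 2.98 CPM at day 5, and Zfp600 had 166, 32.2 and 0.572 CPM. Zfp600 was under 1 CPM at day 5 and passed the limit only through day 3, so the count is not a test. Zfp984, at the end of the block, had 78.2, 46.3 and 22.6 CPM. KRAB zinc finger clusters hold close copies, so reads of 1 gene may have been counted for its neighbours. In the F/A libraries of the other experiment 11 of the 15 lay on the day 5 side in both and 4 on the day 3 side in both.

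Naive pluripotency genes were mostly lower at day 5, some of them after high levels at day 3. The genes that passed summed to 5518 CPM at day 0, 904 CPM at day 3 and 280 CPM at day 5. Of 19 measured genes of 22, 12 were at least 2-fold lower and 3 higher, beside 7.94% and 9.26% of all genes. Tbx3, Zfp42, Nr5a2, Dppa3, Dppa2, Pecam1 and Jam2 were under 1 CPM at day 5 and passed the limit only through day 3. For these the direction was set by the limit, so the count is not a test. Dppa5a, an RNA-binding protein of pluripotent cells, had 1129 CPM at day 0, 257 CPM at day 3 and 2.44 CPM at day 5. Dppa2 and Dppa4, partner proteins that act on bivalent promoters, had 0.662 and 4.72 CPM at day 5 and 103 and 107 CPM at day 3. Esrrb, a nuclear receptor of the naive network, had 653 CPM at day 0, 11.1 CPM at day 3 and 1.62 CPM at day 5. Zfp42 (Rex1) had 421, 16.5 and 0.963 CPM in the same order. Dppa3 (Stella) had 4 counts at day 5 and 140 at day 3. Nanog had 109 CPM at day 5 and 206 CPM at day 3, within 2-fold. In contrast to these, Klf4, a Krüppel-like factor of the naive network, had 225 CPM at day 0, 3.06 CPM at day 3 and 27.3 CPM at day 5. Klf5 had 34.7 CPM at day 5 and 12.0 CPM at day 3, and Stat3, which transmits the LIF signal, had 39.1 and 12.6 CPM. Klf4 stood at 3.97 and 2.30 unique-hit CPM in the other F/A libraries, on the day 3 side of the midpoint, and Klf5 at 17.4 and 6.76. On the LIF and STAT3 list, which shares Klf4, Klf5 and Stat3, 6 of 14 measured genes were higher at day 5. Klf4 and Klf5 were the 2 of these 6 on the day 3 side in both libraries.

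Of the general pluripotency factors, Pou5f1 stayed high and Sox2 did not. Pou5f1 (Oct4) had 782 CPM at day 5 and 958 CPM at day 3, a log2 ratio of -0.29 (-0.31 to -0.27). Sox2 had 492 CPM at day 0, 126 CPM at day 3 and 34.6 CPM at day 5. Of 14 core genes 3 were lower, namely Sox2, Gdf3 and Dnmt3l, and none was higher. Primed epiblast genes had both directions, with 5 higher and 4 lower of 22. For both lists the shares of all genes were 9.26% higher and 7.94% lower. Otx2 had 43.0 CPM at day 5 and 26.3 CPM at day 3, and Fgf5 had 121 and 78.0 CPM, both within 2-fold. Igfbp3, an insulin-like growth factor binding protein, had 791 CPM at day 5 and 37.8 CPM at day 3, and Nes (nestin) had 752 and 115 CPM.

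**Figure D4:**
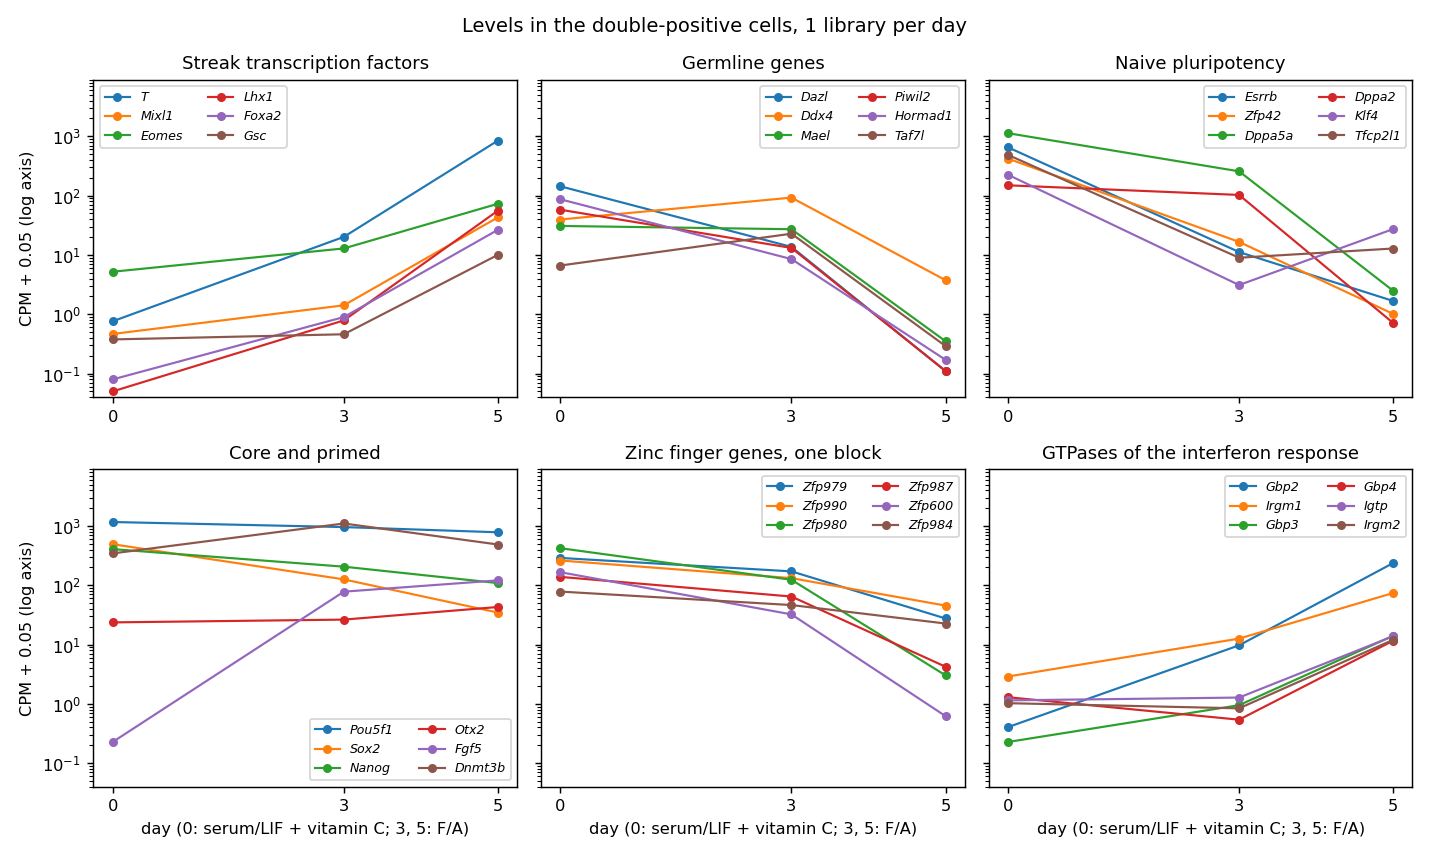
Levels of 6 genes in each of 6 groups (panels) as CPM + 0.05 on a log axis, at day 0 in serum and LIF with vitamin C and at days 3 and 5 in F/A, with 1 library a day. Streak factors and GTPase genes are highest at day 5, the zinc finger genes are lower at each later day, and Dnmt3b is highest at day 3.

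Nodal pathway genes had no common direction, with differences past 2-fold among ligands, receptors and inhibitors and none among the effectors named here. Nodal had 148 CPM at day 5 and 79.4 CPM at day 3, a log2 ratio of 0.90 (0.83 to 0.97). Gdf3, a ligand that works with Nodal, had 8.30 CPM at day 5 and 86.3 CPM at day 3. Tdgf1 (Cripto), the co-receptor, had 775 CPM and 1366 CPM. The receptor genes Acvr1b, Acvr2a and Acvr2b had log2 ratios of 0.78, 0.62 and 1.05. Smad2, Smad3, Smad4 and Foxh1, which carry the signal to DNA, had log2 ratios of 0.26, 0.53, 0.26 and 0.21. Lefty1 and Lefty2, secreted inhibitors that Nodal itself induces, had 85.5 and 13.4 CPM at day 5 and 370 and 42.1 CPM at day 3. Smad7, the inhibitory SMAD, had 21.1 CPM at day 5 and 57.4 CPM at day 3. Cer1, an inhibitor made in anterior endoderm and streak, had 315 counts at day 5 and 2 at day 3. Fst, which binds activin, had 2.07 CPM at day 0, 72.4 CPM at day 3 and 358 CPM at day 5. Of 22 measured genes 4 were higher and 4 lower, beside 9.26% and 7.94% of all genes.

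FGF ligands differed in direction, and the receptors were near their day 3 levels. Fgf8, the streak ligand, had 42.4 CPM at day 5 and 13.0 CPM at day 3. Fgf4, a ligand of the early epiblast, had 8.57 CPM at day 5 and 76.7 CPM at day 3. Fgf15 had 3.23 CPM at day 0, 32.6 CPM at day 3 and 2.05 CPM at day 5. Fgfr1 had 198 CPM at day 5 and 148 CPM at day 3, and Fgfr2 had 17.7 and 18.1 CPM. Feedback genes of the ERK pathway were split. Dusp4, a phosphatase of ERK, had 98.3 CPM at day 5 and 27.9 CPM at day 3, Dusp6, another, had 243 and 317 CPM, and Spry2, a pathway inhibitor, had 60.6 and 135 CPM. Of 30 measured genes of the pathway 6 were higher and 4 lower, beside 9.26% and 7.94% of all genes. Fos and Egr1 are among these 6 and are counted again with the immediate early genes below. Both F/A libraries of the other experiment lay on the day 5 side for 3 of the 6 and on the day 3 side for 2. For all 4 lower genes both lay on the day 5 side.

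**Figure D5:**
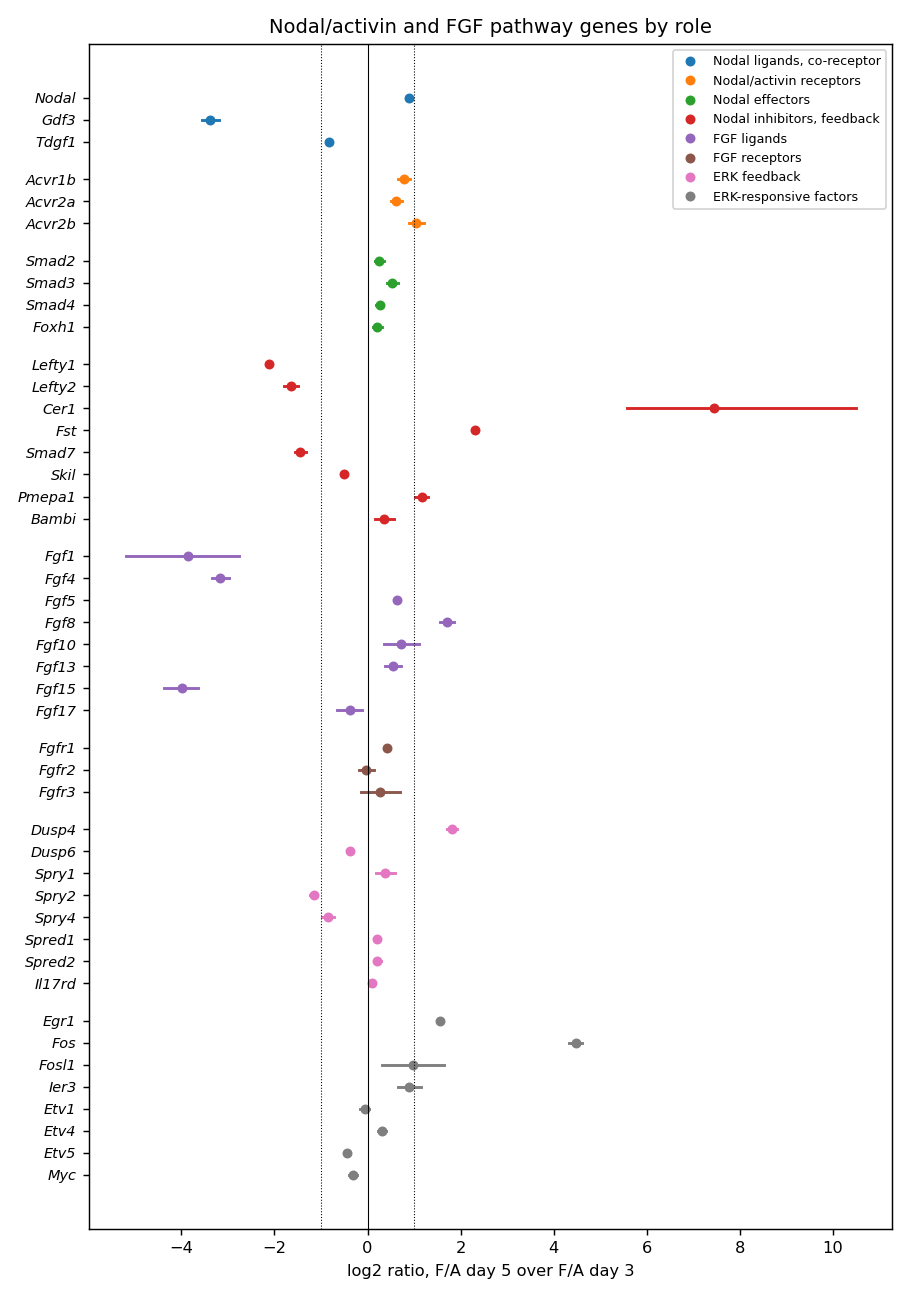
Log2 ratio of day 5 over day 3 (x) with 95% counting intervals for genes of the Nodal/activin and FGF pathways (rows), coloured by role. Dotted lines mark 2-fold. Receptors and effectors lie between -0.03 and 1.05, and the Nodal inhibitors run from -2.11 (Lefty1) to 7.44 (Cer1).

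Wnt genes were higher as a group, with 15 of 34 measured at least 2-fold higher and 2 lower, beside 9.26% and 7.94% of all genes, and a median log2 ratio of 0.72. Among ligands, Wnt6 had 74.5 CPM at day 5 and 1.36 CPM at day 3, and Wnt3, the streak ligand, had 57.9 and 18.6 CPM. Rspo3, which strengthens Wnt signals, had 15.4 CPM at day 5 and 1.15 CPM at day 3, and Dkk1, a secreted inhibitor, had 6.08 and 0.409 CPM. Sp5 had 2177 counts at day 5 and 44 at day 3, a log2 ratio of 5.77 (5.34 to 6.23), and Axin2, a feedback target, had 45.2 and 15.9 CPM. Ctnnb1, which encodes β-catenin, had 770 CPM at day 5 and 791 CPM at day 3. ATCAAAG was in 3 of 21 promoters of the streak list, Sp5 among them, against 3.23% of all promoters. For 12 of the 15 higher genes both F/A libraries of the other experiment lay on the day 5 side. Of 17 BMP pathway genes 5 were higher and 2 lower. Bmp2 had 8.21 CPM at day 5 and 0.218 CPM at day 3, and the BMP inhibitors Nog and Chrd had 7.01 and 11.1 CPM at day 5 and 0.382 and 2.16 CPM at day 3. Bmp2, Nog and Dkk1 were under 1 CPM at day 3 and passed the limit only through day 5. Tbx3, a lower gene of the BMP list, was under 1 CPM at day 5 and passed only through day 3. For these the direction was set by the limit. Cyp26a1, which degrades retinoic acid and is not a listed gene, had 38.2 CPM at day 5 and 0.819 CPM at day 3.

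Genes of both epithelial and mesenchymal cells were higher at day 5. Of 16 measured mesenchymal transition genes 12 were at least 2-fold higher and none lower, and of 22 epithelial genes 8 were higher and none lower, beside 9.26% and 7.94% of all genes. Vim (vimentin) had 1196 CPM at day 5 and 120 CPM at day 3, and Fn1 (fibronectin) had 1128 and 198 CPM. Fn1 had 1109 CPM at day 0, so its day 5 level was near that of day 0. Cdh2 (N-cadherin) had 170 CPM at day 5 and 39.8 CPM at day 3, and Cdh1 (E-cadherin) had 919 and 636 CPM. The keratin genes of simple epithelia Krt8 and Krt18 had 400 and 156 CPM at day 5 and 33.4 and 16.5 CPM at day 3. Dsp, a desmosome protein, had a log2 ratio of 2.98. Both Krt8 and Krt18 stood on the day 5 side in the other F/A libraries, at 373 and 521 and at 112 and 161 unique-hit CPM. Of 27 collagen and matrix genes 12 were higher and 2 lower, against the same shares of all genes. Col5a1 had 134 CPM at day 5 and 15.0 CPM at day 3. In the other F/A libraries, 7 of the 8 higher epithelial genes lay on the day 5 side in both and 1 was split. Of the 12 higher mesenchymal genes 7 lay on the day 5 side, 2 on the day 3 side and 3 were split, and of the 12 higher matrix genes 7 lay on the day 5 side and 5 were split.

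Markers of other cell types had no common direction across the lists. Of 16 fibroblast and feeder genes 9 were measured, with 3 higher and 3 lower. Their sum was 354 CPM at day 5 and 153 CPM at day 3, of which Tagln, a smooth muscle protein, had 329 and 120 CPM. Dcn (decorin) had 1.47 CPM at day 5 and 4.42 CPM at day 3, Fap had no count in either library and Postn had 6 and 2 counts. The cardiac list summed to 13.4 CPM at day 5 and 17.2 CPM at day 3, and the blood and endothelium list to 12.9 and 22.8 CPM, with embryonic globin genes at 0 counts in both. Of 13 measured extraembryonic endoderm genes of 20, 7 were higher and none lower, and those that passed summed to 2195 CPM at day 5 and 819 CPM at day 3. Fn1 held 1128 and 198 CPM of these sums. Gata6, Sox17, Cubn and Pdgfra had log2 ratios of 3.77, 3.66, 3.25 and 2.59, while Afp and Ttr had at most 1 count in each library. Gata6, Sox17 and Cubn were under 1 CPM at day 3 and passed the limit only through day 5, so the count is not a test. The median log2 ratio of the list was 1.18, and 10 measured genes had ratios above 0 and 3 below 0. Those 3 were Gata4, Lama1 and Apoe, at -0.34, -0.30 and -0.12. Among genes below the limit, Sox7 had a log2 ratio of -1.27 (-2.92 to 0.15) and Apoa1 of 0.73 (-1.35 to 2.99). Amn, also below it, had 10 counts at day 5 and 44 at day 3. Of 6 measured trophectoderm genes of 12, 3 were higher, and of 7 primordial germ cell genes 1 was higher and 1, Dppa3, lower. For all these lists the shares of all genes were 9.26% higher and 7.94% lower, and the lists are short. The part of other cell types in the results was not tested.

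Immediate early genes, which respond within minutes to signals and to handling, were higher at day 5. Of 21 measured immediate early and stress genes 11 were at least 2-fold higher and none was lower, beside 9.26% and 7.94% of all genes. Fos had 250 CPM at day 5 and 11.3 CPM at day 3, Fosb had 224 and 6.93 CPM, and Atf3 had 98.6 and 9.72 CPM. In the other experiment's F/A libraries Fos stood at 16.5 and 14.9 and Fosb at 7.94 and 3.57 unique-hit CPM, close to the day 3 values. For 8 of the 11 genes both libraries lay on the day 3 side of the midpoint and for 3 both lay on the day 5 side. Heat shock genes of the list differed less: Hspa5 had 840 CPM at day 5 and 984 CPM at day 3, and Hsph1 had 207 and 248 CPM. The part of handling or of FGF signalling in these values was not tested.

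Interferon-response genes, chosen after their values were seen, were higher at day 5. Of 11 such genes listed, all 8 measured guanylate-binding and immunity-related GTPase genes were at least 2-fold higher, with a median log2 ratio of 3.90. For 5 of the 8 the day 3 level was under 1 CPM, so they passed the limit only through day 5, and this count is not a test. Gbp2 had 0.356 CPM at day 0, 9.66 CPM at day 3 and 237 CPM at day 5. Irgm1 had 74.0 CPM at day 5 and 12.6 CPM at day 3. Of 23 other measured genes of the response 13 were higher and none lower, beside 9.26% and 7.94% of all genes. A further 10 of the 33 listed were below the limit and are not in this count. Isg15, Isg20, Ifih1 and Usp18 were under 1 CPM at day 3 and passed only through day 5, so this count is not a test either. Isg15, a ubiquitin-like protein, had 13.7 CPM at day 5 and 0.328 CPM at day 3. These genes are close copies in part, so single values are uncertain. Gbp2 stood there at 97.2 and 116 unique-hit CPM, and 7 of the 8 GTPase genes lay on the day 5 side in both. Isg15 stood there at 0.992 and 1.28 unique-hit CPM, and 7 of the 13 other genes lay on the day 5 side in both and 3 on the day 3 side. The core of the interferon-stimulated response element was in all 7 promoters of the 11 listed GTPase genes that the RefSeq table holds, on either strand, against 3.04% of all promoters. The 7 include Gbp2b, which was below the limit.

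Calcium-binding families were also looked at with the values known. Of 10 measured annexin genes 4 were higher and none lower, and of 5 measured S100 genes 4 were higher and none lower. The shares of all genes were 9.26% higher and 7.94% lower. S100a6 had 57.6 CPM at day 5 and 2.46 CPM at day 3, and Anxa2 had 109 and 9.17 CPM. The genes with the largest ratios outside these lists had varied roles. Ndnf, a secreted neurotrophic factor, had 3 counts at day 5 and 980 at day 3, a log2 ratio of -8.21 (-10.49 to -6.66), and no count at day 0. Pkd1l1, a polycystin of left-right patterning, had 613 counts at day 5 and none at day 3, at least 225-fold higher. Sprr2a3, a cornified envelope protein, had 35.9 CPM at day 5 and 0.136 CPM at day 3. Lgals3 (galectin-3) had 30.5 and 0.710 CPM, and Pcdh7, a protocadherin, had 83.5 and 1.99 CPM. Lars2, a mitochondrial leucyl-tRNA synthetase, had 175 CPM at day 5 and 1117 CPM at day 3.

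Housekeeping groups were near their day 3 levels, except the mitochondrial genome. Of 25 cell cycle genes 1 was lower and none higher, with a median log2 ratio of -0.12. Of 27 nuclear genes of oxidative phosphorylation none passed 2-fold, with a median of -0.09. Of 19 glycolysis genes Pfkfb3, a regulator of the pathway, was higher, with 155 CPM at day 5 and 28.0 CPM at day 3, and Pdk1, a kinase that restrains pyruvate entry, was lower, with 69.9 and 153 CPM. Both F/A libraries of the other experiment lay on the day 3 side of the midpoint for Pfkfb3 and on the day 5 side for Pdk1. All 12 measured protein-coding transcripts of the mitochondrial genome had ratios below 0, from -1.47 to -0.37 with a median of -0.76. Cholesterol synthesis genes had 3 higher of 21 and none lower. Hypoxia genes had 4 higher and 1 lower of 20, with Ndrg1, a stress-induced gene, at 49.8 CPM at day 5 and 4.23 CPM at day 3. Of 30 amino acid response genes 3 were higher and 1 lower. Of 20 p53 target genes 2 were higher and none lower. The higher shares were 10.0% each for the amino acid and p53 lists, 14.3% for cholesterol and 20% for hypoxia, beside 9.26% of all genes. Perp, a desmosome protein, had 207 CPM at day 5 and 49.2 CPM at day 3. Imprinted genes had 2 higher and 3 lower of 17, beside 9.26% and 7.94% of all genes. Peg3, a paternally expressed zinc finger gene, had 40.4 CPM at day 0, 183 CPM at day 3 and 940 CPM at day 5, and Mest, also paternally expressed, had 30.6, 205 and 73.2 CPM. Predicted genes named Gm with a number were lower more often than higher, 88 (24.9%) against 21 (5.93%) of 354, beside 7.94% and 9.26% of all genes. For 48 of the 88 and 6 of the 21, both F/A libraries of the other experiment lay on the day 5 side of the midpoint. For 23 of the 88 and 11 of the 21, both lay on the day 3 side. Of the 1235 higher genes in all, both F/A libraries of the other experiment lay on the day 5 side of the midpoint for 66.2%, and of the 1058 lower genes for 59.0%.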

How the data were processed

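The authors deposited raw read counts per Ensembl gene for each library of the reporter experiment. TopHat2 2.0.13, HTSeq 0.6.1p1, CASAVA and the build mm9/NCBIM37 are named in the submitters' processing notes. Total RNA was extracted with Trizol, per the labels. The files for the other experiment hold mmseq tables, of which the deposited unique-hit counts were used, divided by their sum. The authors' deposited normalized table holds a score, gene counts scaled and rounded to whole numbers, for 15441 genes, and served as an alternative. In the 2 series tables, 2 columns whose names did not match 1 sample were not used.

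Counts were scaled with edgeR 4.0.16 (TMM over the 4 reporter libraries, R 4.3.3). CPM and log2 ratios used no pseudocount. Intervals are exact 95% Clopper-Pearson intervals of day 5 counts in the sum of both. A gene was called higher or lower at 2-fold. In any list, a measured gene under 1 CPM in 1 library passed only through the other, so its direction was set by the limit. In each library more genes had 2 counts than 1 (1419 and 1156 at day 5, 1470 and 1312 at day 3), so counts are not all independent and intervals may be too narrow. A zero count was bounded with a floor of 3 counts. Symbols were found in a reference table of gene IDs for 87.4% of IDs. Midpoints are on the log2 scale after adding 0.05. The strand setting and the treatment of reads with several positions are not given in the sources used here. The scripts were tested on simulated data.

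Named genes were drawn from the 12 highest and lowest ratios at 10 CPM or more and 6 each at 100 CPM or more (leaving out predicted, pseudo-, mitochondrial, ribosomal protein and histone genes), up to 4 members past 2-fold and 2 others by level from each of 36 lists, all members of 4 pathway lists, and a panel of 10 genes. Other named genes were chosen after their values were seen, Hormad1, Tet2, Tet3, Afp, Ttr, Fap, Postn, Apela, Anxa2, Irgm1, Zfp600 and Zfp984 among them. The members and lists were chosen with earlier results of these data known.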

Additional observations from a re-analysis of the deposited data

How the results depend on the processing

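The counts of 1235 higher and 1058 lower genes stayed within 1.5 times of these values under total-count scaling, TMM over the 2 F/A libraries, DESeq2 1.42.0 size factors, a pseudocount of 1 CPM and the authors' deposited normalized table. They did not with other filters. With at least 1 count in each library and no CPM limit, 2385 genes were higher and 2638 lower. With a mean of at least 5 CPM, 827 were higher and 408 lower, the second by more than 1.5 times. Requiring the whole counting interval past 2-fold left 895 higher and 690 lower, and halving the counts for that interval, an alternative chosen after the data were seen, left 811 and 593. The authors' table moved the median log2 ratio of all genes from 0.03 to -0.10, with 1043 higher and 1235 lower. No named gene past 2-fold changed sign under another scaling, and of 199 such genes 10 were within 2-fold with the pseudocount and 2 in the authors' table. Sizes moved more often, by more than the counting interval: 116 of 303 named genes and 16 of 45 list medians did in the authors' table, and with the pseudocount 100 named genes and 8 list medians did. No paired analysis was possible because each time has 1 library, and none could be left out.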
